A study of Danio rerio with 6 samples.

Results

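The regions described here are the peaks of histone H3 lysine 27 acetylation (H3K27ac) in the zebrafish melanoma line zcrest that share at least 1 base with a sox10 peak of the same line. There were 231 of them among 50338 H3K27ac peaks (0.459%), and 277 of the 4202 sox10 peaks (6.59%) lay on them. They were chosen by that overlap alone, so their having sox10 is not a result, and the members and the groupings below were chosen with earlier results of these data known.

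H3K27ac marks active promoters and enhancers. It sits on the nucleosomes beside a bound factor more than on the bound DNA itself, so at well resolved enhancers a transcription factor often lies in a dip between acetylated nucleosomes. Sox10 is a DNA-binding regulator of the neural crest, the embryonic cell population that gives rise to pigment cells, and it acts upstream of the melanocyte factor mitfa. Where sox10 sits within an acetylated region, and what surrounds that region, is the subject of the measurements below.

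Chromatin immunoprecipitation with sequencing (ChIP-seq) was done on 3 kinds of ChIP library, each with an input library, and every group is 1 library. The zcrest H3K27ac and zcrest sox10 libraries came from a cell line passaged more than 20 times, whose founder fish was labelled p53/BRAF/Na with crestin:EGFP, a neural crest reporter, and MiniCoopR alone. The comparison library was H3K27ac of bulk tissue from a primary melanoma labelled p53/BRAF/Na with MiniCoopR;mitf:EGFP, a control plasmid injected into the fish. MiniCoopR is a transgene vector built around a mitfa minigene. The line is a single culture and the tumor a single dissected tumor that can hold other cell types, and they came from different fish. In bulk tumor, fewer cells with a mark and less of the mark per cell cannot be told apart. Read depth is unknown from peak lists. With 1 library per group no test between conditions could be made, and the 95% intervals below (exact binomial for shares, order statistics for medians) cover counting error only. Positions are 1-based on the Zv9 assembly, and gene names are not used here.

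More of the acetylated peaks with sox10 stood in groups than alone. Joining those closer than 5 kb gave 130 places, 92 of them with 1 such peak and 38 with 2 or more that together held 139 of the 231. A second division runs through all of the results. Sox10 peaks of this line are packed into 122 blocks, each a run of at least 5 sox10 peaks with gaps under 5 kb, which hold 3473 of the 4202 sox10 peaks. Of the 231 acetylated peaks, 141 lay under 42 of these blocks, and 90 lay under sox10 peaks outside blocks. The remaining 80 blocks touched no H3K27ac peak. The 141 and the 90 are counts, not rates: a smaller part of the sox10 peaks in blocks than outside them lay on H3K27ac (below). The 141 made up 45 of the 130 places, so most of the grouping lay under blocks, where sox10 peaks are close by definition. Nearly all places outside blocks held 1 such peak. Another H3K27ac peak of any kind lay within 5 kb of 79.2% of the 231, against 79.9% of peaks without sox10 of similar width.

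The members with the least overlap shared 22, 27 and 33 bases with sox10, and a few H3K27ac peaks without sox10 came within 11, 23 and 64 bases of a sox10 peak. Only 3 H3K27ac peaks outside the set lay within 100 bases of a sox10 peak, and 81 lay within 1 kb.

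The nearest sox10 summit lay close to the acetylation summit. Its median distance was 28 bases (interval 22 to 37), and it was at most 10 bases in 58 of 231 peaks (25.1%), at most 25 bases in 109 (47.2%), at most 50 bases in 140 (60.6%) and at most 100 bases in 179 (77.5%). It was above 500 bases in 7, since 224 of 231 were within that range. For scale, the bases of the same 231 peaks lay a median of 78.2 bases from their own acetylation summit (the mean over all bases of a peak, then the median over peaks). The nearest sox10 summit was closer than that mean in 168 of 231 peaks (72.7%, 66.5% to 78.4%). Since the rule required overlap, a short distance as such is not a result, and the mean over the bases of the same peak is the measure to read it against. That mean counts all bases alike, while both kinds of summit lay more often in the central 50% of the peak (below). How much closeness this alone would give was not tested.

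**Figure D1:**
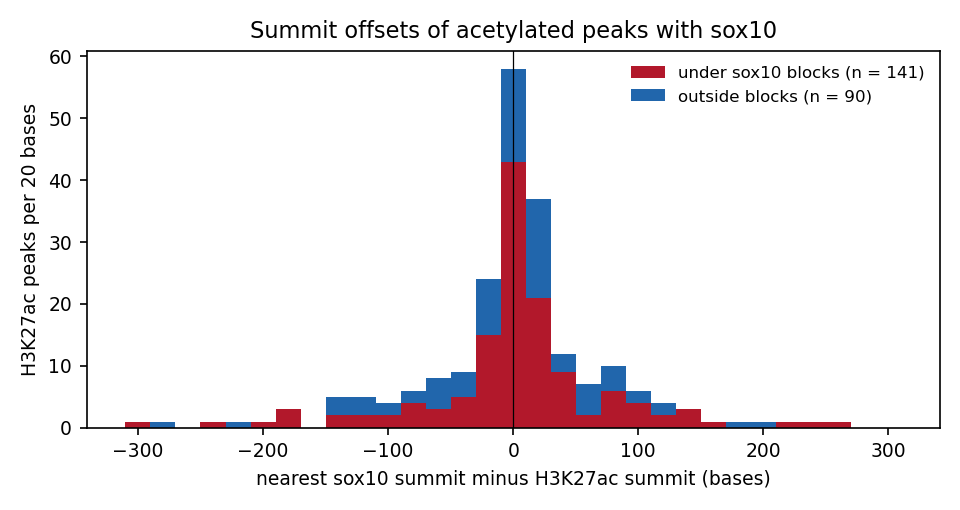
Signed distance from the acetylation summit to the nearest sox10 summit for 141 acetylated peaks under sox10 blocks and 90 outside blocks, in bins of 20 bases (bars are stacked, and a positive value is to the right on the assembly). The counts gather around 0 on both sides, and 19 peaks with distances beyond 310 bases are not drawn.

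The closeness held for peaks with 1 sox10 peak, where no choice among several summits could shorten the distance. In those 188 peaks the median was 32.5 bases (25 to 46), against a mean over their own bases of 70.8. In the 43 peaks with several sox10 peaks it was 16 bases, against 109. It was present in both divisions: 22 bases (18 to 33) against 70.4 under blocks, and 34 bases (26 to 62) against 92.3 outside blocks. The acetylation summit was a nearer landmark than the middle of the peak. Measured to the midpoint of the acetylated peak, the median distance of the sox10 summit was 58 bases. No preferred side was detectable, the sox10 summit lying to the right of the acetylation summit in 123 of 231 peaks (53.2%, 46.6% to 59.8%).

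**Figure D2:**
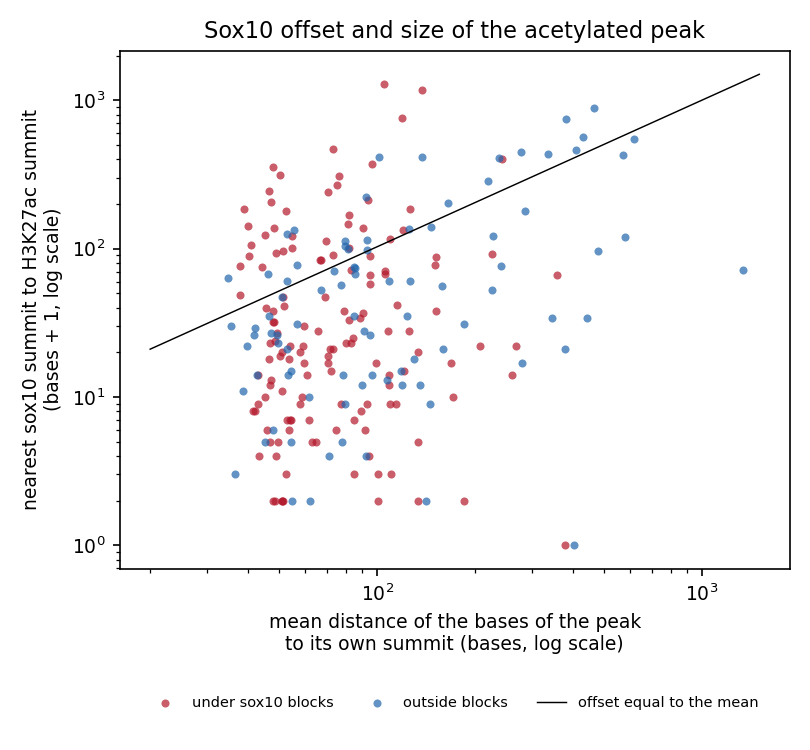
Distance from the nearest sox10 summit to the acetylation summit (vertical axis, bases plus 1, log scale) against the mean distance of all bases of that peak to its summit (horizontal axis, bases, log scale), 1 point per acetylated peak. Of 231 points, 168 lie below the line where both are equal, under blocks and outside them alike in share (72.3% and 73.3%).

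Distance was nearly flat over the 4 lower bins of width and larger in the widest. In 5 bins of rising width (139 to 170, 171 to 217, 218 to 305, 306 to 470 and 471 to 3283 bases, with 46 peaks in each but the last, which had 47), the median distance was 21.5, 23.5, 27, 26 and 77 bases. The mean distance over the bases of the same peaks had medians of 46.6, 51.3, 74.2, 101 and 238 bases.

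Classed by position, sox10 was more often central than at an edge. The best placed sox10 summit lay in the central 50% of the acetylated peak in 134 of 231 peaks (58.0%, 51.4% to 64.5%), in the outer 25% at either end in 66 (28.6%), and outside the peak, with overlap by the flank of the sox10 peak only, in 31 (13.4%). Among the 241 sox10 summits that fell inside an acetylated peak, 145 (60.2%, 53.7% to 66.4%) were in the central 50%, which holds 50% of the bases by construction. Sox10 summits outside the acetylated peak that they overlapped are not among the 241. In 5 equal bins from the left to the right end, these summits numbered 35, 60, 59, 55 and 32, so the end bins were the thinnest and the inner bins nearly flat. The acetylation summits themselves were in the central 50% in 165 of the 231 peaks (71.4%), against 75.7% in peaks without sox10 of similar width.

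The central position was more frequent outside blocks. There 65 of 90 peaks (72.2%, 61.8% to 81.1%) had a central sox10 summit, 19 an edge one and 6 an outside one. Under blocks the numbers were 69 of 141 (48.9%, 40.4% to 57.5%), 47 and 25. Those intervals do not overlap, but peaks of 1 block share their source and no test was made. Peak width moved with this too. A central summit was found in 26.1% of the narrowest bin, 67.4%, 60.9% and 76.1% in the next 3 and 59.6% in the widest, and 76.1% of the narrowest bin lay under blocks against 36.2% of the widest. The part of width in this was not tested.

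The extent of the overlap separated the divisions further. Outside blocks the sox10 peak was wholly inside the acetylated peak in 84 of 103 overlapping pairs (81.6%), with a median sox10 width of 76 bases. Under blocks this held in 49 of 182 pairs (26.9%), with a median sox10 width of 223.5 bases, and in 44 pairs (24.2%) the acetylated peak was wholly inside the sox10 peak. That last arrangement occurred in 5 pairs (4.85%) outside blocks. Summed over peaks, sox10 covered 77.3% of the acetylated bases under blocks and 22.1% outside blocks. The blocks that hold these peaks had 42.4% of all their bases inside sox10 peaks.

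Most acetylated peaks carried 1 sox10 peak. That was so for 188, while 35 carried 2, 6 carried 3, 1 carried 4 and 1 carried 5. Carrying 2 or more went with width: the median width was 235.5 bases with 1 sox10 peak, 351 with 2 and 640.5 with 3 or more. Their median H3K27ac fold enrichments (the authors' ratio over the caller's background) were alike at 3.42, 3.52 and 3.68. Sox10 summits that were neighbours on the same acetylated peak were a median of 209.5 bases apart (range 108 to 1274 over 54 spacings). In 31 of the 43 peaks with several, sox10 summits stood on both sides of the acetylation summit. The share with several was 34 of 141 (24.1%) under blocks and 9 of 90 (10.0%) outside.

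The fullest peak was on chromosome 16 from 9255798 to 9257306, with 5 sox10 peaks over 1509 bases. Its acetylation summit and a sox10 summit fell on the same base, the H3K27ac fold was 8.41, and the highest sox10 fold on it was 20.6. The next was the widest of all, on chromosome 2 from 20756421 to 20759703. It had 4 sox10 peaks over 3283 bases, an H3K27ac fold of 11.2 and a nearest sox10 summit 71 bases from the acetylation summit, where a mean base of that peak was 1339 bases away. This wide peak overlapped tumor H3K27ac and the chromosome 16 peak did not. Peaks with 3 included chromosome 1 from 47272765 to 47273288 and, within the chromosome 10 place described below, those from 2502166 to 2502844 and from 2505703 to 2506304.

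The reverse case, 1 sox10 peak reaching over several acetylated peaks, was rare. It occurred for 6 of the 277 sox10 peaks. The longest, on chromosome 23 from 4776302 to 4778297 (1996 bases, fold 17.1), touched 4 acetylated peaks separated by 66 to 280 bases, and its summit lay in a gap between them. The other 5 touched 2 peaks each, across gaps of 59 to 237 bases, and had their summit on an acetylated peak. Such long sox10 peaks gave 3 of the 5 largest distances between summits. The chromosome 23 peaks from 4777923 to 4778290 and from 4777381 to 4777856 were 1298 and 758 bases from its summit, and a chromosome 10 peak from 2494159 to 2494700 was 1181 bases from the summit of the sox10 peak that covers it. A different kind of large distance was seen on chromosome 18 from 27003355 to 27004644 (893 bases) and chromosome 4 from 53048653 to 53050097 (745 bases), where a sox10 peak that lay wholly inside covered 4.81% and 4.08% of a wide acetylated peak near its left end.

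Sox10 peaks on acetylated peaks differed from the other sox10 peaks in width and fold. Their median fold was 7.56 (7.07 to 8.23), against 4.71 for the 3925 off H3K27ac, and their median width was 138 bases, against 83. Inside blocks the medians were 9.32 and 217 bases for the 175 on H3K27ac, against 4.60 and 89 bases for the 3298 off it. Outside blocks they were 5.81 (5.18 to 6.03) and 75.5 bases for 102, against 5.19 (4.98 to 5.33) and 62 bases for 627. The 175 were out of 3473 sox10 peaks in blocks, and the 102 out of 729 outside blocks. The 3925 and the 3298 include every sox10 peak of the 80 blocks that touched no H3K27ac peak, the largest with 219 sox10 peaks. Those contrasts therefore also set different blocks against each other, and none was made within single blocks. All these medians are values of the list that the rule used and describe it only.

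On the acetylated side the folds ran the other way. The 231 peaks had a median H3K27ac fold of 3.42 (3.15 to 3.70), against 5.18 in peaks without sox10 of similar width. For this and later comparisons the peaks without sox10 were weighted so that 10 bins of width counted as in the 231, which used 50101 of the 50107 (width-weighted values). The median was lower in each of 5 width bins, from 3.05 against 4.24 in the narrowest to 5.48 against 7.67 in the widest. It was 2.94 against 4.89 under blocks and 4.50 against 5.71 outside. Among the 231, H3K27ac fold and the highest sox10 fold had a Spearman rho of -0.26, which was -0.02 under blocks and -0.14 outside. These rho values are descriptions over peaks of 2 libraries.

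The 5 acetylated peaks with the highest sox10 fold had H3K27ac folds of 2.14 to 3.84. On chromosome 7 from 72152125 to 72152409, sox10 reached 32.9 with H3K27ac at 3.50 and summits 14 bases apart. On chromosome 13, 1 sox10 peak of fold 31.2 touched the peaks from 4322050 to 4322351 and from 4322493 to 4322876, with H3K27ac folds of 3.84 and 3.38. On chromosome 8, the peaks from 32016075 to 32016213 and from 32014467 to 32014712 had sox10 folds of 25.2 and 24.1 and H3K27ac folds of 2.14 and 2.32, with summits 4 and 6 bases apart. None of these 5 overlapped tumor H3K27ac.

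The 5 with the strongest acetylation had H3K27ac folds of 16.1 to 22.5 and 1 sox10 peak each, with sox10 folds of 4.35 to 5.82. The highest, on chromosome 24 from 17532015 to 17533331, had an H3K27ac fold of 22.5, a sox10 fold of 5.82 and summits 33 bases apart. The others were on chromosome 10 from 22073960 to 22075606 (95 bases apart), chromosome 7 from 23255602 to 23257184 (119 bases), chromosome 19 from 31666162 to 31667655 (33 bases) and chromosome 19 from 23002640 to 23004083 (426 bases). All 5 were outside blocks and all 5 overlapped tumor H3K27ac, and sox10 covered 3.10% to 3.95% of their bases. Another such wide peak, on chromosome 20 from 33262823 to 33264346, had an H3K27ac fold of 14.3 and its sox10 summit 568 bases away.

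Where both folds were at least 5, summits could coincide to the base. The regions named here were chosen for the smallest distance. The chromosome 18 peak above also had both folds over 5 (5.52 and 6.08), with summits 893 bases apart. Besides the chromosome 16 peak above, the summits coincided on chromosome 19 from 25152573 to 25153862 (H3K27ac 13.3, sox10 5.04). They were 1 base apart on chromosome 3 from 43063678 to 43064075 (6.36 and 16.5), 2 bases apart on chromosome 16 from 10158053 to 10158191 (5.18 and 5.89) and 7 bases apart on chromosome 6 from 1371957 to 1372261 (5.87 and 17.1).

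Neighbouring acetylated peaks were fewer outside blocks than in peaks without sox10. Under blocks their share was lower at 200 and 300 bases, differed by less than the counting error at 1 kb and was higher at 5 kb. Of the 231, 141 (61.0%, 54.4% to 67.4%) had another H3K27ac peak of the line within 1 kb, against 67.8% of all H3K27ac peaks and 67.8% width-weighted. Under blocks the share was 98 of 141 (69.5%, 61.2% to 77.0%), against 67.5% in peaks without sox10 of similar width. Outside blocks it was 43 of 90 (47.8%, 37.1% to 58.6%), against 68.8%. At 5 kb the shares were 91.5% under blocks and 54 of 90 (60%) outside, against 79.9% width-weighted. The median gap to the next H3K27ac peak was 435 bases under blocks and 1600 bases outside, against 298 width-weighted. The 79.9% and the 298 bases were weighted to the widths of all 231, not to those of each division. Within 500 bases the share under blocks was 51.1% (42.5% to 59.6%), against 59.4% in peaks of similar width, which its interval includes. Within 200 and 300 bases the share under blocks was 23.4% and 36.2%, against 38.5% and 50.2% weighted to the widths of all 231. Fold moved with the neighbour share: with peaks without sox10 matched on both width and fold, the 61.0% for all 231 stood against 64.4%, inside the interval of the 231.

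**Figure D3:**
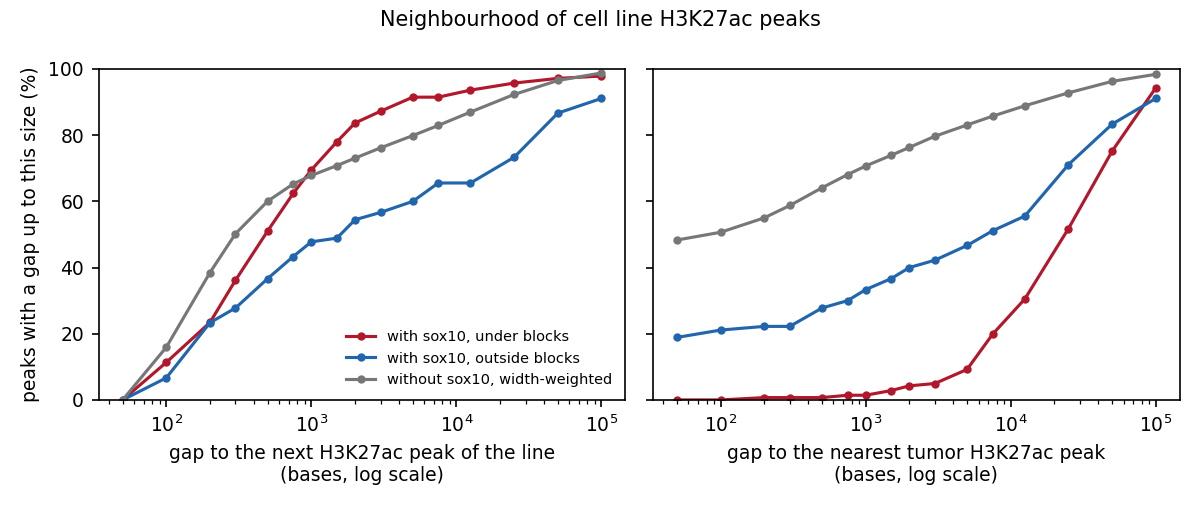
Share of cell line H3K27ac peaks whose gap to the next H3K27ac peak of the line (left) or to the nearest tumor H3K27ac peak (right) is up to the size on the horizontal axis (bases, log scale), for peaks with sox10 under blocks (n = 141), with sox10 outside blocks (n = 90) and without sox10, width-weighted. On the left the curve under blocks crosses that of peaks without sox10 between 750 bases and 1 kb, while the curve outside blocks stays below it, and on the right both curves of sox10 peaks lie below it.

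Under blocks the neighbours mostly carried sox10 too. The nearest neighbour within 1 kb also carried sox10 in 94 of 98 cases (95.9%), and outside blocks in 6 of 43 (14.0%). A total of 144 H3K27ac peaks touched the span of a block, and 141 of them (97.9%, 94.0% to 99.6%) overlapped a sox10 peak. In 39 of the 42 blocks that held any H3K27ac peak, every one did. Without the fullest place the number was 121 of 124 (97.6%). Blocks are runs of closely spaced sox10 peaks, so their definition raises this share without fixing its height. The share is therefore not read as a result. Sox10 peaks covered 42.4% of the bases of blocks with such a peak. That is a share of bases, and an H3K27ac peak of 139 bases or more can touch sox10 at any of its bases. The share of peaks that this coverage alone would give was not tested.

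No preference of sox10 for the side of a peak that faces its neighbour was detectable. Of 62 peaks with a neighbour within 1 kb and no central sox10 summit, 33 had sox10 on the side of the nearest neighbour (53.2%, 40.1% to 66.0%). Counting every peak with such a neighbour and summits that differ, the sox10 summit was on the neighbour's side of the acetylation summit in 75 of 139 (54.0%, 45.3% to 62.4%). Both intervals include 50%. Neighbours within 1 kb on both sides were found for 61 of 231 (26.4%, 20.8% to 32.6%), against 19.7% of all H3K27ac peaks and 19.6% width-weighted. Of the 61, 13 were in a single place on chromosome 10, and without that place the number was 48 of 211 (22.7%, 17.3% to 29.0%), whose interval includes 19.6%. The nearest neighbour had the higher H3K27ac fold in 123 of 231 (53.2%), close to the 52.2% of all H3K27ac peaks.

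The fullest place was on chromosome 10 from 2486786 to 2506934, 20.1 kb with 20 acetylated peaks. All 20 carried sox10 by construction, since places join only peaks with sox10, but no other H3K27ac peak lay within the span. None of the 20 overlapped tumor H3K27ac, and the block of sox10 peaks there numbered 45. Their H3K27ac folds ran from 1.77 to 4.64 with a median of 2.56, and their highest sox10 folds ran from 6.05 to 15.2. Gaps between them were 74 to 1543 bases with a median of 522, but on the outer sides the next H3K27ac peaks were 142956 and 68690 bases away. Summit distances spread from 1 to 1181 bases, with a median of 76, and 9 of the 20 had a central sox10 summit.

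**Figure D4:**
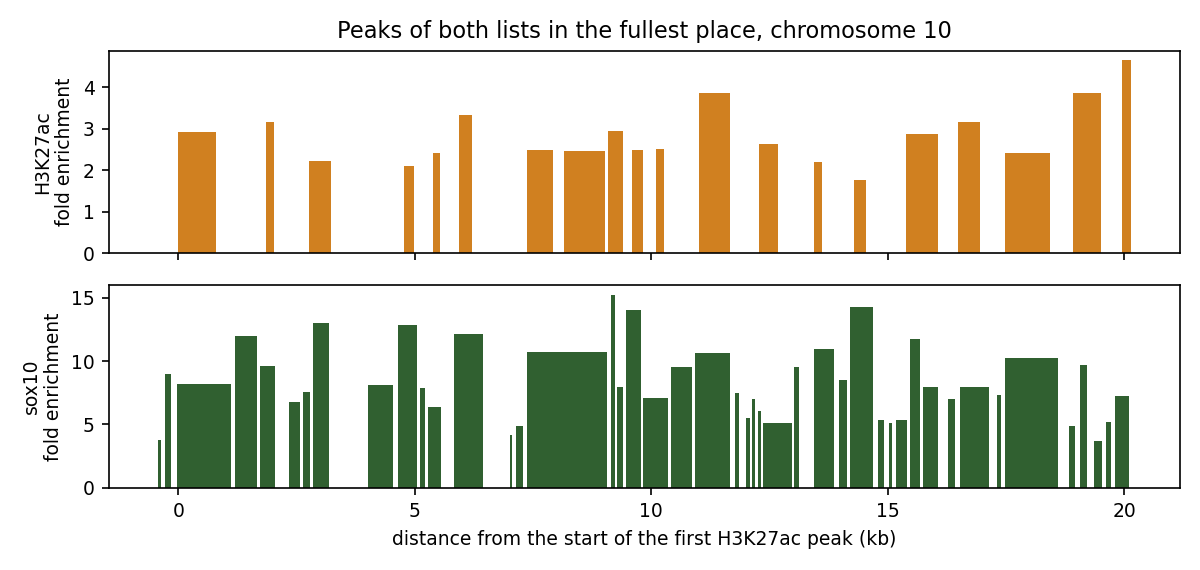
H3K27ac peaks (top) and sox10 peaks (bottom) of the fullest place on chromosome 10, drawn as bars from peak start to peak end against the distance from the start of the first H3K27ac peak (kb), with height as the authors' fold enrichment. The 20 H3K27ac peaks, with folds of 1.77 to 4.64, each stand over at least 1 of the 45 sox10 peaks, as the choice of members requires.

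The next places were smaller. On chromosome 5 from 69777435 to 69783882 there were 8 acetylated peaks with a median H3K27ac fold of 3.18, on chromosome 24 from 3326225 to 3331161 there were 7 (2.48), and on chromosome 3 from 43063206 to 43067641 there were 7 (6.15). On chromosome 23 from 4775678 to 4779775 there were 6 (3.60), 4 of which touched the long sox10 peak described above. The chromosome 3 place had the highest median H3K27ac fold of these 5 places, with 6 of its 7 peaks holding a central sox10 summit, against 1 of 7 on chromosome 24. These 4 places lay wholly under blocks and none held a peak found in the tumor. By block size, blocks of 5 to 19 sox10 peaks held 85 of the acetylated peaks, those of 20 to 49 held 46 and those of 50 or more held 10, all 10 in 1 block on chromosome 14 from 29795824 to 29827400. The blocks holding any were 34 of 79, 7 of 27 and 1 of 16 in these size classes, so most of the largest blocks had none. Median summit distances in these classes were 19 (11 to 27), 37 (20 to 77) and 55 bases (5 to 96). For the 62 peaks under isolated sox10 peaks (no other within 5 kb) the median was 53.5 (28 to 97). The fullest place, with a median of 76, gave 20 of the 46 in the middle class.

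By chromosome, members were found on 24 of 25. Chromosome 10 held 28 of the 231, which was 1.38% of its H3K27ac peaks (0.92% to 1.99%), in 6 places. Of these 28, 20 were in the fullest place, so that interval, which counts peaks as separate, is too narrow. Chromosome 5 held 23 (0.76%) in 9 places and chromosome 3 held 17 (0.69%) in 10. Chromosome 19 differed in make-up: its 12 peaks lay in 12 separate places, 11 of them outside blocks, and 4 of them overlapped tumor H3K27ac. Chromosome 25 had 0 of its 1452 H3K27ac peaks under sox10 (upper limit 0.25%). It held 238 sox10 peaks, most of them in blocks between 27101487 and 27524830 that touched no H3K27ac peak. Chromosome 12 held the most sox10 peaks, 425, and 2 members. Of the 425, 210 lay in 1 block and 181 in another, and neither block touched an H3K27ac peak. More members lay near the chromosome ends, 120 of 231 (51.9%) within 10 Mb of the nearer end against 32.7% of all H3K27ac peaks, with position 1 and the last peak end over the 3 lists taken as the chromosome ends. The chromosome 10 place alone adds 20 to that count.

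**Figure D5:**
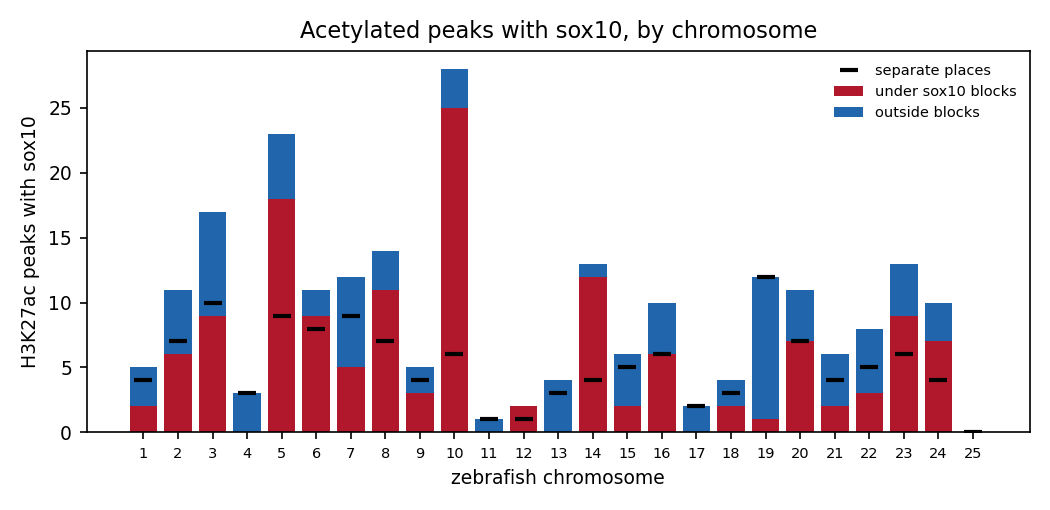
Number of H3K27ac peaks with sox10 on each zebrafish chromosome, stacked as those under sox10 blocks and those outside, with a dash at the number of separate places (joined within 5 kb). Chromosome 10 has 28 peaks in 6 places, chromosome 19 has 12 in 12, and chromosome 25 has 0.

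The tumor list, which the rule did not use, held few of these regions. Of the 231, 16 (6.93%, 4.01% to 11%) overlapped a tumor H3K27ac peak, against 47.9% of all H3K27ac peaks of the line and 45.7% width-weighted. Counting each place as 1 value, the share was 12.3%, against 47.4% width-weighted. In the 3 narrower width bins 0 of 46 peaks each were found, against 25.3%, 32.6% and 38.5% of peaks without sox10. In the widest bin 31.9% were found, against 74.6%. The difference reached beyond the peak itself: a tumor peak lay within 5 kb of 55 of the 231 (23.8%), against 83.5% of all H3K27ac peaks. Under blocks that was 13 of 141 (9.22%), and outside blocks 42 of 90 (46.7%).

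Taken over all members, line H3K27ac peaks without sox10 that stood near a member were found in the tumor at intermediate rates. Within 1 kb of a member the number was 24 of 70 (34.3%, 23.3% to 46.6%), against 53.4% for all peaks without sox10 weighted to their widths. From 1 to 5 kb it was 63 of 153 (41.2%, 33.3% to 49.4%), against 52.4%, and from 50 to 200 kb 688 of 1510 (45.6%), against 48.8%. Beside blocks they were few: 10 lay between 1 and 5 kb from a member under a block, and 8 of these overlapped a tumor peak. Neighbouring peaks share their surroundings, so these intervals are too narrow.

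The 16 regions found in the tumor were wide and high in H3K27ac fold, with sox10 folds near the middle of the sox10 list. All 16 were outside blocks and each was in a place of its own. Their median width was 1304 bases and their median line H3K27ac fold was 11.6, while their sox10 folds ran from 4.04 to 5.97 with a median of 4.93, against a median of 8.21 over all 231 regions and 4.88 over all 4202 sox10 peaks. The values for regions take the highest sox10 fold on each, and the 4.88 is per sox10 peak. The 231 include 141 under blocks, where sox10 folds were higher. The median given above for sox10 peaks on H3K27ac outside blocks was nearer to 4.93 than the 8.21 is. Sox10 covered a median of 4.53% of each. The sox10 summit was a median of 107 bases from the line's acetylation summit, where the mean base was 393 bases away. The tumor summit was a median of 62 bases (20 to 209) from the line summit, against 96 in peaks without sox10, width-weighted. In 7 of the 16 more than 1 tumor peak overlapped, and the tumor summit nearest to the line summit was used. The sox10 summit was a median of 188.5 bases (99 to 494) from that tumor summit. Taking the closest pair of sox10 and tumor summits instead, which on chromosome 20 from 33262823 to 33264346 picks another tumor peak, gave 141.5 bases, and the sox10 peak itself touched the tumor peak in 9 of 16. On chromosome 23 from 37111488 to 37111845 the 3 summits were closest, with sox10 27 bases from the line summit and 7 bases from the tumor summit. On chromosome 4 from 53048653 to 53050097 they were farthest, at 745 and 739 bases, while line and tumor summits were 6 bases apart.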

How the data were processed

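The submitters' processing notes name Bowtie, the Zv9 assembly and, for peaks, MACS2 2.0. Which control and which thresholds the peak caller had is not stated in those notes. The deposited lists give, per peak, a fold enrichment (the ratio of pileup to expected background), the −log10 of the p-value and q-value, and a summit. The deposited score was 10 times the −log10 q, truncated, in all 114300 peaks. The highest q-value was 0.0497, so weaker sites are missing. H3K27ac peaks had a minimum width of 139 bases and sox10 peaks of 51, which limits how finely positions resolve. The fold values are the authors' own, per peak. Medians and differences of fold were taken within a list. The rho values set H3K27ac fold against sox10 fold, across lists. The regions named for having both folds high were also picked with the same cutoff on both zcrest lists.

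Overlap meant at least 1 shared base. Distances, positions, places and width-weighted values were computed with numpy 2.4.6 and pandas 2.3.3 under Python 3.11.15, exact intervals with scipy 1.17.1, and the interval code was tested on simulated data. The regions to name were set by rank: the 5 highest by number of sox10 peaks, either fold, width, offset, closeness and tumor overlap, and the 5 fullest places. Members, blocks and lists were chosen with earlier results of these data known. Input libraries were not used here. No Zv9 genome was at hand, so sequences and genes are not reported here.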

Additional observations from a re-analysis of the deposited data

How the results depend on the processing

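Across 56 alternatives to 8 values, 36 stayed within the counting interval of the reported value (or within 1.5 times for a count), 20 moved and 0 changed direction. Only the differences from width-weighted other peaks (neighbours, tumor overlap and median fold) have a direction. The counts, plain shares and summit distance could not change it. The cause of the moves was not tested. With both zcrest lists at a −log10 q of 5 or more, 100 acetylated peaks had sox10 and 25% of them several. At 10 or more, 22 did, with 27.3% several, a median summit distance of 14 bases and 77.3% central. Without blocks there were 90, with 10.0% several and 72.2% central, a share with a neighbour within 1 kb that differed by -21.0 points from width-weighted other peaks and a median fold difference of -1.21. Requiring overlap of 50% of the shorter peak gave 11.6% with several. Requiring the sox10 summit inside gave a distance of 21.5 bases and 67.0% central. The distance to the peak midpoint was 58 bases, and 38.5% had sox10 in the middle of 3 equal parts. The neighbour difference of -6.78 points was -22.2 with 1 value per place, -14.6 at 500 bases and -19.2 with H3K27ac at a −log10 q of 5 or more, -0.65 at 5 kb and -3.37 when other peaks were matched on width and fold enrichment. Leaving the fullest place out of the count of peaks with neighbours on both sides, and the choice of tumor summit, were added after seeing the data. The tumor difference of -38.8 points was -30.9 with 50% overlap. No paired analysis was possible because every group is 1 library, and leaving out a replicate was not possible for the same reason.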
